A study of Mus musculus with 24 samples.

Results

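The 36 genes described here encode the structural proteins, crosslinking enzymes and matricellular proteins of basement membranes and of Bruch's membrane. They were taken as a listed gene set, found by symbol among the 31053 gene identifiers counted in each library, and all 36 were present. The libraries were made from RNA of isolated retinal pigment epithelium (RPE) cells of mice of mixed strain background. In all, 24 libraries were counted, 4 in each of 6 groups. Controls were positive for Dct-Cre, a Cre transgene active in pigment cells, and mutants combined floxed Ift20 with that transgene. Untreated mice of both genotypes were sampled 11 days (P11), 29 days (P29) and 3 months (3M) after birth. Both genotypes therefore carried Cre, and the labels do not say whether controls had a floxed allele as well. Sex was not collected, and the labels do not say whether a library came from 1 animal or a pool, so the p-values rest on a spread between libraries that may be technical.

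Bruch's membrane is the thin layered matrix between the RPE and the choroidal capillaries. Its RPE and capillary faces are basement membranes, sheets of laminin and collagen IV networks joined by nidogens and heparan sulphate proteoglycans, and its middle holds collagen fibres around an elastin layer. The RPE, the endothelium and the choroidal stroma all contribute to it, and the matrix metalloproteinase inhibitor TIMP3 is stored in it. Thickening and deposits of this membrane are known from ageing and from macular disease.

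Counts from a 3' mRNA kit yield 1 tag per transcript near its poly(A) end, so the genes were also placed on the genome. In the GRCm38 annotation the collagen IV genes form head-to-head pairs. Col4a1 (chr8:11198423-11312826, minus strand) and Col4a2 (chr8:11312805-11449287, plus strand) overlap by 22 bases at their 5' ends. Col4a4 (chr1:82448423-82586849, minus) and Col4a3 (chr1:82586921-82722059, plus) are separated by 71 bases, and Col4a6 and Col4a5 on chromosome X by 1308 bases. RefSeq start-site windows of the GRCm38.p6 assembly, 250 bases before to 50 after a start, were matched for 27 of the 36 genes. The GC box, GGGCGG on either strand, was in 26 of their 34 windows (76.5%) against 35.7% of all 32851 windows. The TATA box TATAAA was in 0.0% of the 34 windows against 13.6% of all, the E-box CACGTG in 5.88% against 7.15%, the E-box CATGTG in 2.94% against 14.2%, and the OTX motif TAATCC in 8.82% against 7.06%. These counts describe letters in a window and no binding was measured. Of the 27 genes with a window, 23 held a GC box. Of the 13 genes lower in P11 mutants, 10 had a window and 8 of those held a GC box. The exon-free stretches below are shown for the collagen IV gap and for 4 genes on which the results turn, 5' to 3' on the strand of the named gene, with GC boxes in capitals. They are the whole gap between Col4a4 and Col4a3 (chr1:82586850-82586920, minus), Col8a1 (chr16:57754738-57754987, minus), Col8a2 (chr4:126286544-126286792, plus), Hspg2 (chr4:137468553-137468768, plus) and Timp3 (chr10:86300162-86300371, plus).
Col4a4 and Col4a3 gap: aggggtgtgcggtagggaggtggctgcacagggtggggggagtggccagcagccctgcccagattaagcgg
Col8a1: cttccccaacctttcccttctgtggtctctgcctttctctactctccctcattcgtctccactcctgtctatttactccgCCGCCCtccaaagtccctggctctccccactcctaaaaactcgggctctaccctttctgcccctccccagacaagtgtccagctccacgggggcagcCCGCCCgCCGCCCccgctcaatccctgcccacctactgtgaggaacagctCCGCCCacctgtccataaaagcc
Col8a2: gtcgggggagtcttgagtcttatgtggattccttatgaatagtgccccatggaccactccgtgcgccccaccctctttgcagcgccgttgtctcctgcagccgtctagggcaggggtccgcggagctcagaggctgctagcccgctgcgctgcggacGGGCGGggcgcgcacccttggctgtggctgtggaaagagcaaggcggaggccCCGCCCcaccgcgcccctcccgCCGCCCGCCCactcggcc
Hspg2: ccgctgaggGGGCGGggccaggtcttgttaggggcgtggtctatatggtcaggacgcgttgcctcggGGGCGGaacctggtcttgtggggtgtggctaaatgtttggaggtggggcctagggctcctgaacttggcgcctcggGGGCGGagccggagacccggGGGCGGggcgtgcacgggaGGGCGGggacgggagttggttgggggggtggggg
Timp3: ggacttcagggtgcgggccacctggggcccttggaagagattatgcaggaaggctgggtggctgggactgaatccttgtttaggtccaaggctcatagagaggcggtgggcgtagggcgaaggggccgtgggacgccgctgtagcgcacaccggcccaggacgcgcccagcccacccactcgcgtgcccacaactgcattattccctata
The Hspg2 stretch held 5 GC boxes, those of Col8a1 and Col8a2 held 4 each, of which 2 overlap in Col8a2, and the collagen IV gap and the Timp3 stretch held 0. The full Timp3 window, which includes bases of its first exon, held a GC box and is among the 8.

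A library held between 1513440 and 2889946 gene counts over 13132 to 14709 detected genes, and levels are given as CPM, counts scaled to a common library total with TMM factors. A count of 3, taken as the detection floor, corresponds to 1.04 to 1.98 CPM, which covers counting error only. Of the RPE markers, Rpe65 had group means of 1927 to 8568 CPM and Rlbp1 1060 to 4566 CPM, while Best1 was nearly absent, with group means of 0.0836 to 2.93 CPM. Ift20, the targeted intraflagellar transport gene, differed between mutants and controls by a log2 fold change of -0.27 (SE 0.16, edgeR adjusted p = 0.353) at P11, -0.60 (SE 0.15, 0.0112) at P29 and -0.26 (SE 0.15, 0.547) at 3M. Its 3' tag can lie outside the deleted part, so it does not check the labels. Control replicate 3 at 3M stood apart in several genes of the set, with Lox at 50.6 CPM, Fbln2 at 30.5, Fn1 at 35.3 and Bgn at 144, and its summed stromal fibroblast markers were 839 CPM against 468 to 564 in the other 3M controls.

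Mutants were compared with controls at each age to ask how the matrix genes differed with the Ift20 genotype. At P11 the set was lower in mutants: of 34 genes tested, 13 fell and 0 rose at an edgeR adjusted p under 0.05 over 12303 genes. They were Col4a1, Col4a2, Col4a4, Nid2, Hspg2, Col18a1, Col8a1, Col8a2, Timp3, Eln, Fbln5, Sparc and Loxl1. Of all genes tested 6.93% passed, 3.67% lower and 3.26% higher. The P11 differences were negative for 31 of the 34, with a median log2 fold change of -0.47 against -0.00155 over all genes. At an unadjusted p under 0.05 there were 20, all negative, where 18.6% of all genes passed, and DESeq2 called 14 lower and 0 higher, where it called 8.83% of all genes. In 15 genes every mutant library lay under every control library, where 4.97% of all genes did so. Col4a6 (77 counts in 24 libraries) and Lama1 (64 counts) did not pass the low-count filter of the fit. Where a fit kept Lama1, it was called lower with age in some: in mutants from P11 to P29 with no filter (log2 fold change -4.84, edgeR adjusted p = 0.0352), without P11 mutant replicate 2 (-5.13, 0.0309) or 4 (-5.24, 0.023), and in controls without P11 control replicate 4 (-3.37, 0.0313) or P29 control replicate 2 (-6.55, 0.00544). Lama1 had 6 counts in P29 controls and 0 in P29 mutants, so these fitted sizes are no bound.

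At P29 fewer genes of the set passed. Eln rose, and Col18a1 and Timp3 fell, 3 of 34 where 2.84% of all genes passed, 1.63% higher and 1.21% lower. The median log2 fold change was 0.00275, with 17 genes above and 17 below 0 and a range of -0.44 to 2.08. At an unadjusted p under 0.05 there were 7 at P29, where 11.4% of all genes passed, and DESeq2 called 3, where it called 3.84% of all genes. At 3M, 4 genes fell, Col4a3, Col4a4, Col8a1 and Timp3, and 0 rose, where 2.61% of all genes passed, 0.48% lower and 2.13% higher. At an unadjusted p under 0.05 there were 9 at 3M, where 11.3% of all genes passed, and DESeq2 called 5 lower and 0 higher, where it called 2.99% of all genes. When control replicate 3 or mutant replicate 1 or 4 was left out, 0 genes of the set were called at 3M. The 3M median was -0.15 against 0.0319 over all genes. Timp3 was the one gene of the set called at all 3 ages.

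**Figure D1:**
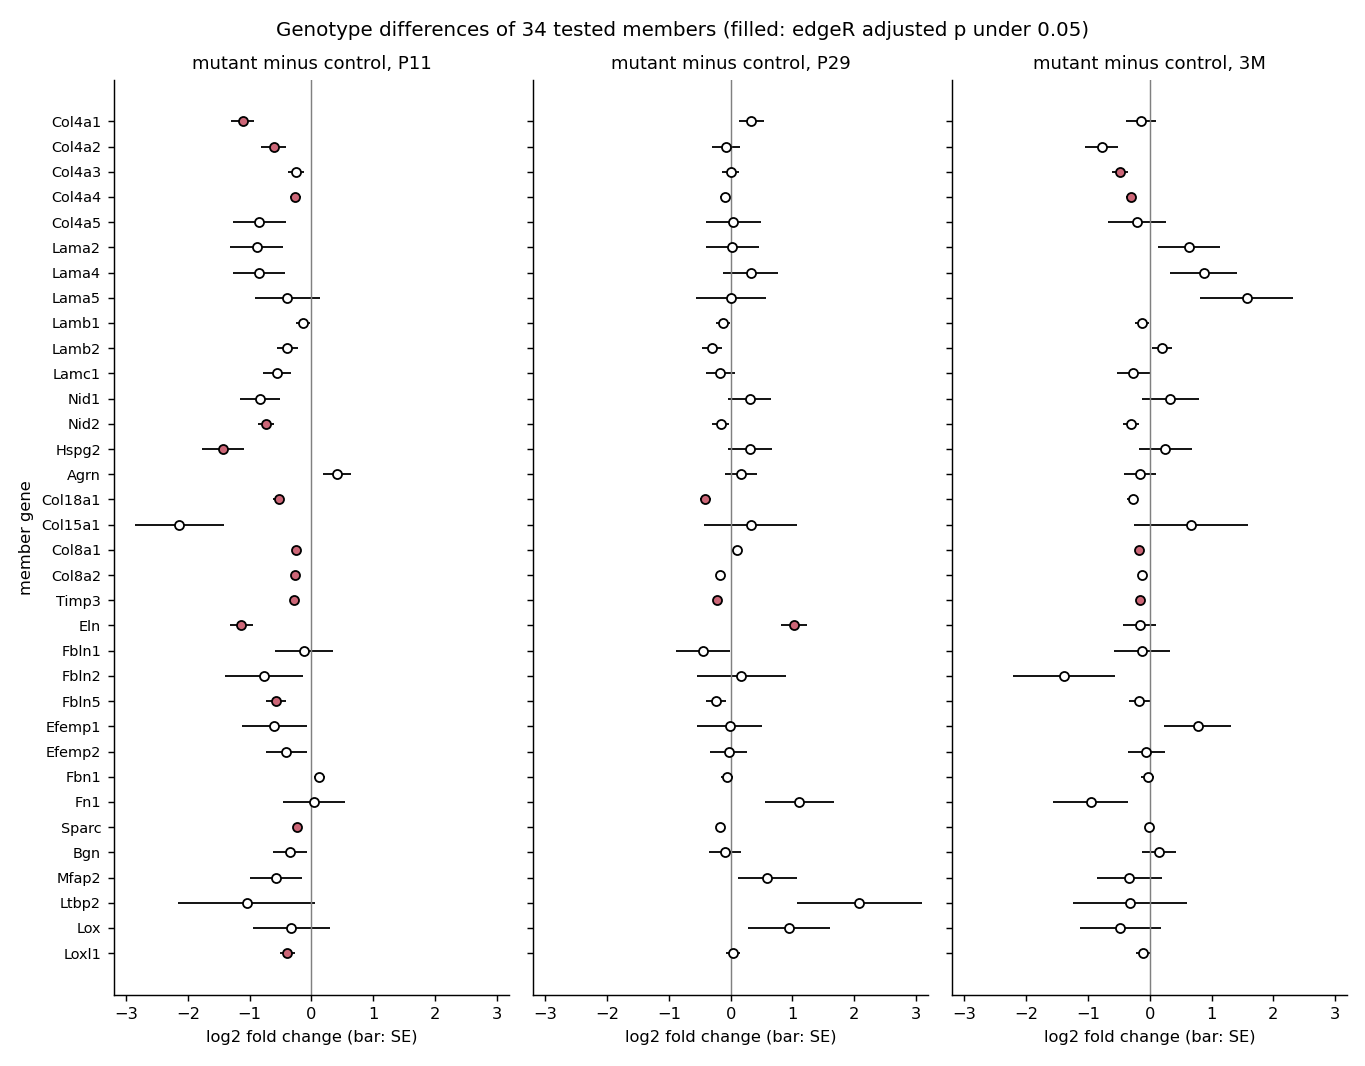
Log2 fold change of mutants against controls (x axis, with SE bars) for the 34 tested genes (y axis), 1 panel per age, with filled points for an edgeR adjusted p under 0.05. Most points lie left of 0 at P11, where 13 are filled, and 3 are filled at P29 and 4 at 3M.

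The libraries also held RNA of other cells that make these proteins, and their markers moved with genotype. At P11 the 8 endothelium markers summed to 390 to 442 CPM in controls and 186 to 241 in mutants, and 4 of 8 fell. The 6 pericyte markers summed to 240 to 291 CPM in controls and 111 to 160 in mutants, with 3 of 6 lower. The 7 stromal fibroblast markers summed to 1764 to 2009 CPM in controls and 1348 to 1652 in mutants, with 3 of 7 lower. Of the 6 myelinating glia markers 5 were tested and all 5 fell, the sum being 347 to 473 CPM in controls and 41.8 to 65.0 in mutants. RPE markers summed to 18343 to 19099 CPM in controls and 17533 to 18444 in mutants at P11, with 5 of 6 tested lower. The 6 lens markers summed to 65.2 to 109 CPM in controls and 27.9 to 36.1 in mutants, with 3 of 6 lower, the 4 choroidal melanocyte markers to 198 to 302 and 163 to 175, with 2 of 4 lower, and the 5 microglia markers to 254 to 316 and 220 to 249, with 1 of 5 lower. No defining marker of these 8 lists was at 0 in either group. Rod markers were higher in mutants, 5 of 6 at P11, with sums of 7388 to 8526 CPM in controls and 9779 to 10077 in mutants. The part of these cells in the P11 differences was not tested, and in bulk libraries fewer cells of a type and less RNA per cell cannot be told apart.

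At P29 the direction of the endothelium markers was the other way, with sums of 61.4 to 99.6 CPM in controls and 105 to 123 in mutants and 1 of 8 higher. The pericyte sums overlapped, at 156 to 202 CPM in controls and 163 to 193 in mutants, with 0 of 6 called. The stromal fibroblast sums stayed lower in mutants, at 1424 to 1514 CPM in controls and 1317 to 1409 in mutants, with 0 of 7 called. Lens markers, from a tissue whose capsule is a thick basement membrane, summed to 24.3 to 35.7 CPM in P29 controls and 580 to 654 in P29 mutants, and 6 of 6 rose. RPE markers summed to 47691 to 48418 CPM in controls and 40829 to 43357 in mutants, with 4 of 6 lower. Rod markers were again higher in mutants, 6 of 6 at P29 (7577 to 8342 CPM in controls and 11133 to 12585 in mutants) and 6 of 6 at 3M (3061 to 3370 and 5617 to 6069). Microglia markers summed to 414 to 461 CPM in P29 controls and 357 to 401 in P29 mutants, and to 496 to 580 and 578 to 629 at 3M. At 3M the endothelium sum was 14.7 to 29.6 CPM in controls and 34.4 to 44.0 in mutants, and the fibroblast sum 468 to 839 and 672 to 799. The lens sum at 3M was 15.3 to 17.3 CPM in controls, where the defining marker Cryaa was at 0, and 12.9 to 24.3 in mutants. The part of these markers in the P29 and 3M results was not tested.

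**Figure D2:**
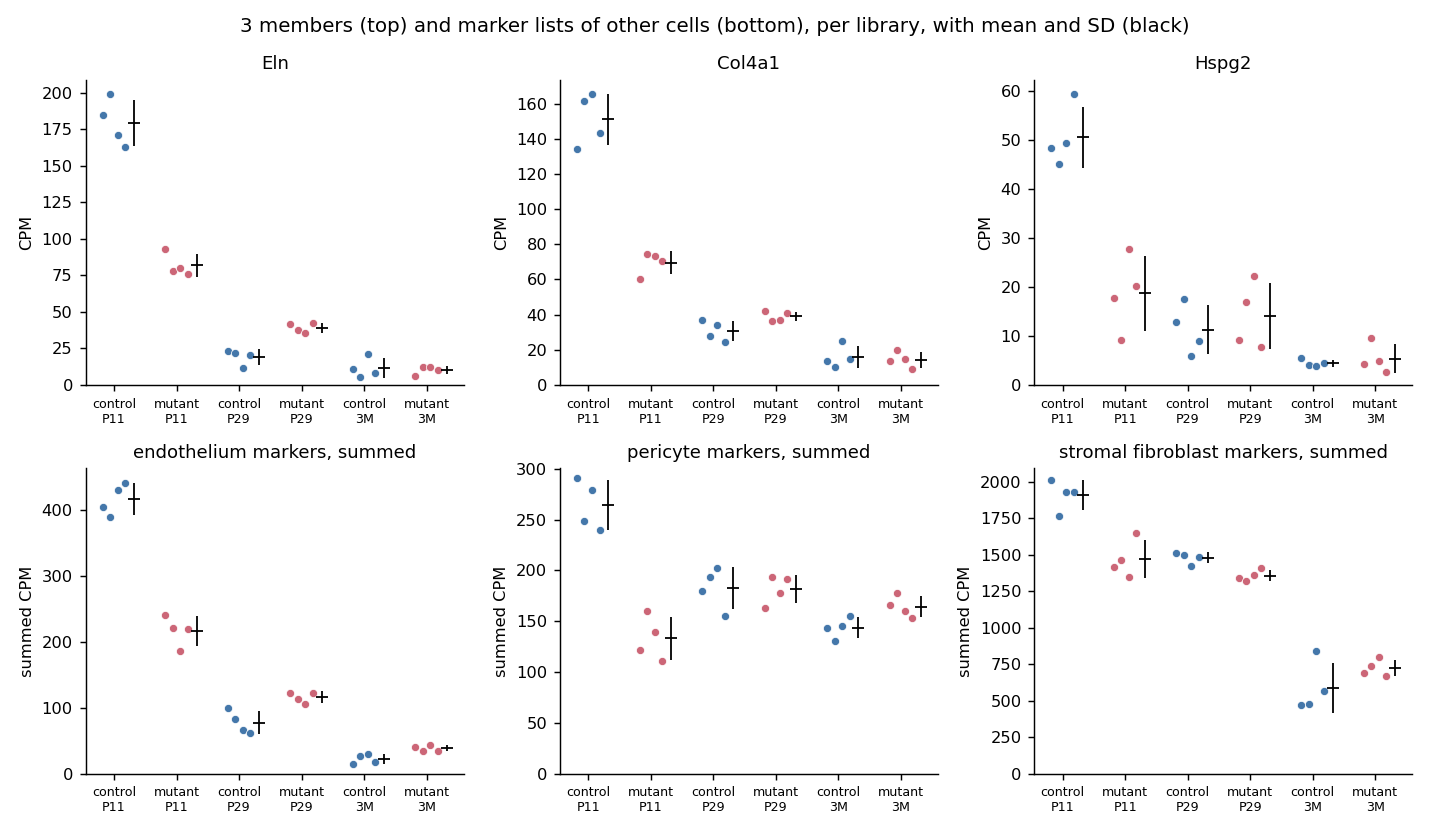
CPM per library for Eln, Col4a1 and Hspg2 (top) and summed CPM of endothelium, pericyte and stromal fibroblast markers (bottom), with controls in blue, mutants in red and mean and SD in black. All 6 panels are highest in P11 controls, and at P11 every mutant library is under every control library in each panel.

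Collagen IV chains form the network that gives a basement membrane its strength. Col4a1 and Col4a2 are the chains of nearly all such membranes, and Col4a3, Col4a4 and Col4a5 form the trimer of specialised membranes. In replicate order, Col4a1 measured 134, 161, 165 and 143 CPM in P11 controls and 60.4, 74.6, 73.3 and 70.3 in P11 mutants. The groups did not overlap, and Col4a1 fell 2.16-fold (log2 fold change -1.11, SE 0.18, edgeR adjusted p = 5.42e-06). Col4a2 measured 113, 106, 118 and 117 CPM in P11 controls and 79.6, 87.2, 63.4 and 67.4 in mutants, again without overlap. It fell 1.53-fold (-0.61, SE 0.20, 0.0447), a call near the threshold that was lost in 7 of the 8 fits that left out 1 P11 library (adjusted p 0.0554 to 0.146) and kept without mutant replicate 2. It was also lost with no low-count filter (0.0608). At P29 Col4a1 was 37.1, 27.9, 33.9 and 24.3 CPM in controls and 42, 36.6, 37.1 and 40.8 in mutants (log2 fold change 0.33, SE 0.20, adjusted p = 0.585).

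Col4a4 measured 322, 408, 359 and 358 CPM in P11 controls and 326, 282, 265 and 331 in mutants, so the highest mutants lay above the lowest control. It fell 1.20-fold (-0.26, SE 0.09, 0.0477), and the call was lost without control replicate 2, 3 or 4 or mutant replicate 2 or 3 (adjusted p 0.0529 to 0.208), with no low-count filter (0.104), with the replicate block (0.055) and with only the compared libraries (0.0929). Its partner across the shared gap, Col4a3, measured 188, 186, 186 and 182 CPM in P11 controls and 157, 179, 138 and 149 in mutants (-0.25, SE 0.13, 0.274), with no overlap and no call. At 3M both fell. Col4a3 measured 165, 128, 151 and 108 CPM in controls and 97, 118, 82.2 and 96.5 in mutants, overlapping through control replicate 4, and fell 1.40-fold (-0.49, SE 0.13, 0.0184). Col4a4 at 3M measured 417, 346, 445 and 392 CPM in controls and 302, 323, 346 and 325 in mutants, meeting at mutant replicate 3 and control replicate 2, and fell 1.23-fold (-0.30, SE 0.09, 0.0285). Neither 3M call was kept in every fit that left out a library. That of Col4a3 was lost without control replicate 1 or 3 or mutant replicate 1, 3 or 4 (adjusted p 0.0558 to 0.171), and that of Col4a4 without control replicate 1, 3 or 4 or mutant replicate 1, 2 or 4 (0.0574 to 0.201). Col4a5 had group means of 21 CPM ± 7.9 (SD, n = 4) in P11 controls and 11.7 ± 2.13 in P11 mutants (-0.84, SE 0.42, 0.266), and 5.11 to 8.04 CPM later.

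With age the pairs differed. In controls Col4a1 fell 4.85-fold (log2 fold change -2.28, SE 0.19, edgeR adjusted p = 1.64e-18) and Col4a2 4.71-fold (-2.23, SE 0.22, 1.19e-15) from P11 to P29, and Col4a5 fell 2.68-fold (-1.42, SE 0.43, 0.00644). Col4a3 fell 1.53-fold over the same step (-0.61, SE 0.13, 5.75e-05), while Col4a4 did not pass in controls and rose 1.19-fold in mutants (0.25, SE 0.09, 0.0192). That rise was lost without P11 mutant replicate 2 or 3, with DESeq2 size factors (0.19, edgeR adjusted p = 0.0778) and with DESeq2 (0.19, adjusted p = 0.0611). In mutants Col4a1 fell 1.78-fold (-0.83, SE 0.19, 0.000262), Col4a2 3.24-fold (-1.69, SE 0.22, 1.9e-10) and Col4a3 1.29-fold (-0.37, SE 0.13, 0.0212), the last lost without replicate 2 of the P11 or P29 mutants. Col4a1 fell further to 3M in both genotypes, by 1.94-fold in controls (-0.96, SE 0.22, 0.000642) and 2.71-fold in mutants (-1.44, SE 0.22, 1.46e-07), and Col4a2 fell 2.49-fold in mutants (-1.32, SE 0.26, 4.68e-05).

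Laminins are the heterotrimers on which a basement membrane is assembled. None of the 6 tested chains passed the edgeR test or DESeq2 between genotypes at any age. At P11 all 6 had a negative difference, with a median log2 fold change of -0.48, and 4 had an unadjusted p under 0.05, against 0 at P29 and 1 at 3M. Of all genes 18.6% had such a p at P11, 11.4% at P29 and 11.3% at 3M. The 1 at 3M was Lama5, higher in mutants (1.57, SE 0.76, edgeR adjusted p = 0.408), with a control mean of 0.853 CPM, under the floor. The laminin median at 3M was 0.42, with 2 of 6 negative. Lamc1, the gamma chain of most laminins, had means of 75.2 CPM ± 9.82 (SD, n = 4) in P11 controls and 51 ± 11.3 in mutants (-0.56, SE 0.23, edgeR adjusted p = 0.126). Lama2 (-0.88, SE 0.43, 0.245) and Lama4, an alpha chain of vessel walls (-0.85, SE 0.42, 0.261), were also under the control mean. Lama5 (-0.39, SE 0.53, 0.764), Lamb1 (-0.14, SE 0.11, 0.543) and Lamb2 (-0.39, SE 0.17, 0.174) completed the chains. Lamb2 ranged from 53 to 79.5 CPM over the group means and passed in no comparison.

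Over time 4 of 6 laminins fell in controls from P11 to P29, Lama4 by 3.53-fold (-1.82, SE 0.44, edgeR adjusted p = 0.000651), Lama5 by 2.96-fold (-1.57, SE 0.55, 0.021), Lamb1 by 1.41-fold (-0.50, SE 0.11, 0.000224) and Lamc1 by 2.60-fold (-1.38, SE 0.23, 5.73e-07). Of all genes tested 15.6% were lower in controls over this step. The Lama5 call was lost without P11 control replicate 4 or P29 control replicate 1 or 4. In mutants Lamb1 fell 1.40-fold (-0.48, SE 0.11, 0.000362) and Lamc1 1.98-fold (-0.98, SE 0.24, 0.000445). Between P29 and 3M Lama2 fell 3.82-fold in controls (-1.93, SE 0.48, 0.00186) and 2.51-fold in mutants (-1.33, SE 0.45, 0.0366). Lama4 fell 3.11-fold (-1.64, SE 0.52, 0.0252) and Lama5 6.21-fold (-2.64, SE 0.71, 0.00529) in controls, down to means of 3 and 0.853 CPM, the latter under the floor. Lamc1 fell 1.67-fold in controls (-0.74, SE 0.25, 0.0352) and 1.80-fold in mutants (-0.84, SE 0.26, 0.0158). Several of these 3M calls depended on single libraries. The mutant Lama2 call was lost without P29 replicate 2 or 3 or 3M replicate 2, 3 or 4 and with no low-count filter, and the mutant Lamc1 call without replicate 4 of either age. The control Lama4 call was lost without P29 replicate 1, 3 or 4 or 3M replicate 1, 2 or 4, and the control Lamc1 call without P29 replicate 1, 2 or 3 or 3M replicate 1 or 4. Both were lost with only the compared libraries, and Lamc1 with no low-count filter.

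Nidogens link the laminin and collagen IV networks, and perlecan and agrin are the heparan sulphate proteoglycans of basement membranes. Nid2 (chr14:19751265-19811787) measured 155, 167, 135 and 158 CPM in P11 controls and 88.9, 103, 96.9 and 78.4 in P11 mutants. The groups were well apart, and Nid2 fell 1.67-fold (log2 fold change -0.74, SE 0.13, edgeR adjusted p = 2.22e-05). Its last exon overlaps Rtraf on the other strand, and Rtraf differed by -0.08 (SE 0.18, 0.872) at P11. Hspg2, which encodes perlecan (chr4:137468769-137570630), measured 48.5, 45.1, 49.4 and 59.5 CPM in P11 controls and 17.7, 9.16, 27.7 and 20.3 in P11 mutants. All 4 mutants lay under all 4 controls, and Hspg2 fell 2.70-fold (-1.43, SE 0.34, 0.00219). At P29 Hspg2 overlapped fully, with 12.9, 17.5, 5.9 and 8.92 CPM in controls and 9.22, 16.9, 22.2 and 7.84 in mutants. Nid1 measured 45.5 CPM ± 8.13 (SD, n = 4) in P11 controls and 25.4 ± 3.7 in mutants (-0.83, SE 0.33, 0.114). Its P11 groups did not overlap, and it was called lower with only the compared libraries (-0.85, edgeR adjusted p = 0.036). Agrn, the agrin gene, was one of 3 genes with a positive P11 difference, at 62 CPM ± 5.7 in controls and 82.7 ± 14.6 in mutants (0.42, SE 0.23, 0.307).

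All 4 genes of this group fell in controls from P11 to P29, Hspg2 by 4.45-fold (-2.16, SE 0.35, edgeR adjusted p = 2.11e-07), Agrn by 3.41-fold (-1.77, SE 0.25, 2.55e-09), Nid1 by 3.37-fold (-1.75, SE 0.34, 1.27e-05) and Nid2 by 1.74-fold (-0.80, SE 0.13, 2.77e-07). Over this step 15.6% of all genes tested were lower in controls and 15.2% in mutants. In mutants 1 of 4 fell, Agrn by 4.04-fold (-2.01, SE 0.24, 1.4e-11). Over the later step Nid1 fell 4.01-fold in controls (-2.00, SE 0.41, 0.000114) and 3.95-fold in mutants (-1.98, SE 0.39, 6.47e-05). Hspg2 fell 2.51-fold in controls (-1.33, SE 0.40, 0.0155) and 2.61-fold in mutants (-1.38, SE 0.39, 0.00736). Those Hspg2 calls were lost without P29 control replicate 2, and without P29 mutant replicate 3 or 3M mutant replicate 4, and the control call with only the compared libraries (adjusted p = 0.0651). Nid2 turned the other way in 3M controls, rising 1.29-fold (0.37, SE 0.13, 0.0449), and this was lost in every fit that left out 1 of the 8 libraries except 3M control replicate 2, and with no low-count filter (0.0666).

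Col18a1 and Col15a1 encode basement membrane collagens that carry heparan sulphate or chondroitin sulphate chains and release endostatin-type fragments, and Col8a1 and Col8a2 encode the short-chain collagen VIII of Bruch's membrane and the corneal Descemet's membrane. Col18a1 (chr10:77052178-77166548) measured 233, 241, 265 and 273 CPM in P11 controls and 182, 169, 167 and 181 in P11 mutants. No library overlapped, and it fell 1.45-fold (log2 fold change -0.53, SE 0.09, edgeR adjusted p = 2.97e-05). At P29 it measured 326, 312, 311 and 310 CPM in controls and 286, 215, 237 and 209 in mutants, all under the controls, and fell 1.33-fold (-0.41, SE 0.09, 0.00175). At 3M it measured 274, 287, 285 and 284 CPM in controls and 238, 237, 238 and 221 in mutants, without overlap, but the difference did not pass in the edgeR fit (-0.28, SE 0.09, 0.103). DESeq2 called it (-0.29, adjusted p = 0.0141), as did the fit to the 8 libraries compared (-0.30, edgeR adjusted p = 0.0185). With age Col18a1 rose 1.25-fold in controls (0.32, SE 0.09, 0.00452) and 1.35-fold in mutants (0.44, SE 0.09, 9.22e-05) from P11 to P29.

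Col8a1 (chr16:57624258-57754737) measured 3218, 3260, 3437 and 3014 CPM in P11 controls and 2669, 2646, 2711 and 2815 in P11 mutants. The groups did not overlap, and Col8a1 fell 1.19-fold (-0.25, SE 0.05, edgeR adjusted p = 0.000176). At P29 it measured 3330, 3401, 3173 and 3379 CPM in controls and 3697, 3358, 3698 and 3539 in mutants (0.11, SE 0.05, 0.38), with overlap through mutant replicate 2. At 3M it measured 3391, 3121, 3440 and 3347 CPM in controls and 2854, 3061, 3066 and 2838 in mutants, all under the controls, and fell 1.13-fold (-0.17, SE 0.05, 0.0381). The 3M call was lost without control replicate 1, 3 or 4 or mutant replicate 1 or 4 (adjusted p 0.104 to 0.185) and with no low-count filter (0.0694). In mutants the gene rose 1.32-fold from P11 to P29 (0.40, SE 0.05, 6.82e-11) and fell 1.21-fold from P29 to 3M (-0.27, SE 0.05, 1.11e-05), and neither step passed in controls.

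Col8a2 (chr4:126286793-126314330), the partner chain of Col8a1, measured 412, 457, 427 and 413 CPM in P11 controls and 348, 365, 350 and 362 in P11 mutants. It fell 1.20-fold without overlap (-0.26, SE 0.07, edgeR adjusted p = 0.00652), a call lost with only the compared libraries (0.051). At P29 the means were 1051 CPM ± 63 (SD, n = 4) in controls and 930 ± 52.3 in mutants (-0.18, SE 0.06, 0.147), and at 3M 1438 ± 87.7 and 1314 ± 40.4 (-0.13, SE 0.06, 0.426). The chain rose with age. From P11 to P29 it rose 2.46-fold in controls (1.30, SE 0.07, 6.2e-33) and 2.61-fold in mutants (1.38, SE 0.07, 8.97e-35), and from P29 to 3M 1.37-fold in controls (0.45, SE 0.06, 2.29e-08) and 1.41-fold in mutants (0.50, SE 0.06, 7.79e-10). Col15a1, a collagen of vessel and muscle basement membranes, had means of 16.2 CPM ± 4.62 in P11 controls and 3.6 ± 1.2 in mutants (-2.14, SE 0.73, 0.055). DESeq2 called this difference (-2.16, adjusted p = 0.00598). In controls Col15a1 fell 5.83-fold from P11 to P29 (-2.54, SE 0.74, 0.00422), and its later means of 0.842 to 3.44 CPM lay near the floor.

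**Figure D3:**
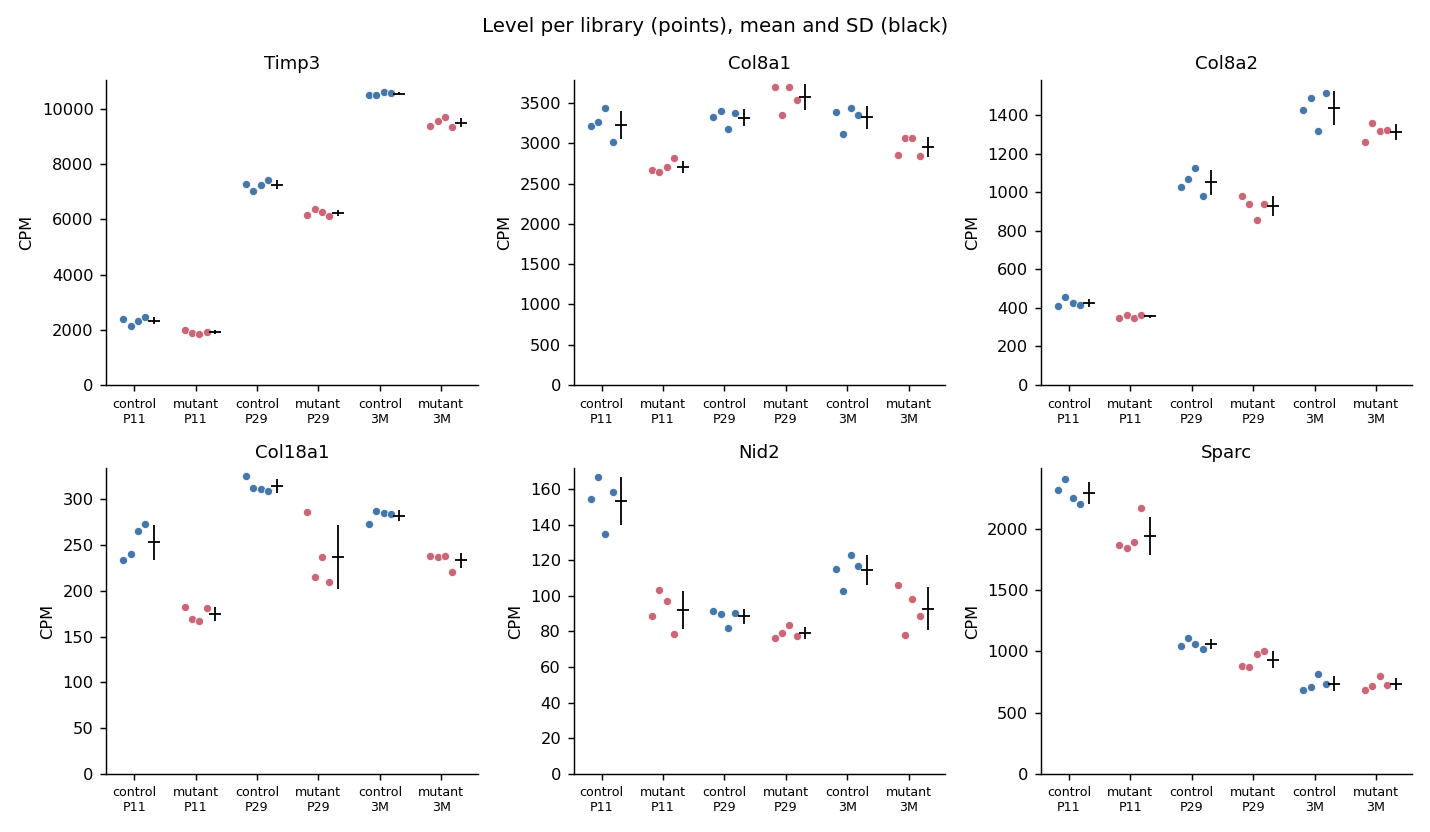
CPM per library (points, controls blue and mutants red, with mean and SD in black) for Timp3, Col8a1, Col8a2, Col18a1, Nid2 and Sparc in the 6 groups. Timp3 and Col8a2 climb from P11 to 3M, Sparc declines, and Timp3 mutants lie under the controls of the same age in all 3 pairs of groups.

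Timp3 (chr10:86300372-86349506) encodes the metalloproteinase inhibitor bound to Bruch's membrane, and its mutations cause Sorsby fundus dystrophy in humans. It measured 2391, 2149, 2313 and 2459 CPM in P11 controls and 1993, 1883, 1866 and 1930 in P11 mutants. At P29 it measured 7282, 7032, 7244 and 7439 CPM in controls and 6164, 6391, 6257 and 6123 in mutants. At 3M it measured 10514, 10517, 10616 and 10568 CPM in controls and 9390, 9561, 9690 and 9325 in mutants. The genotypes did not overlap at any age. Timp3 fell 1.21-fold at P11 (log2 fold change -0.28, SE 0.04, edgeR adjusted p = 9.82e-07), 1.16-fold at P29 (-0.22, SE 0.04, 0.000188) and 1.11-fold at 3M (-0.15, SE 0.04, 0.0244). The P11 and P29 calls were kept when any single library was left out. The 3M call was kept only without mutant replicate 3, and the other 7 fits gave adjusted p 0.0536 to 0.104 with log2 fold changes of -0.16 to -0.14. It was also lost with no low-count filter (0.0524). The 6 tested RPE markers had median log2 fold changes of -0.265 at P11, -0.327 at P29 and -0.0446 at 3M. Of them 5, 4 and 1 were lower in mutants at these ages. Whether Timp3 fell with RPE transcripts in general was not tested. From P11 to P29 Timp3 rose 3.11-fold in controls (1.64, SE 0.04, 2.92e-56) and 3.25-fold in mutants (1.70, SE 0.04, 1.63e-57). From P29 to 3M it rose 1.46-fold in controls (0.54, SE 0.04, 5.88e-20) and 1.52-fold in mutants (0.61, SE 0.04, 8.62e-23). Timp3 lies within Syn3 on the other strand, which had 83 counts in all 24 libraries against 356573 for Timp3.

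Elastic fibres consist of an elastin core on fibrillin microfibrils, with fibulins in their assembly. Eln (chr5:134702593-134747323), the elastin gene, measured 184, 199, 171 and 163 CPM in P11 controls and 93.4, 78.1, 80 and 75.9 in P11 mutants. The groups were far apart, and Eln fell 2.19-fold (log2 fold change -1.13, SE 0.19, edgeR adjusted p = 4.61e-06). At P29 it measured 23.6, 21.9, 11.4 and 20.3 CPM in controls and 41.5, 37.4, 35.4 and 42.7 in mutants. Every P29 mutant lay above every P29 control, and Eln was 2.04-fold higher in mutants (1.03, SE 0.22, 0.000682), a call kept without any single library. At 3M it measured 10.9, 5.42, 20.9 and 8.49 CPM in controls and 6.26, 12.6, 12.1 and 10 in mutants (-0.17, SE 0.27, 0.933), with full overlap. Endothelium and lens markers had lower sums in mutants at P11 and higher sums at P29, as Eln did. At 3M the endothelium sums were again higher in mutants, where Eln overlapped, and the lens sums overlapped. Pericyte sums overlapped at P29, and stromal fibroblast sums were lower in P29 mutants. The part of these cells in the Eln result was not tested.

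In controls Eln fell 9.28-fold from P11 to P29 (-3.21, SE 0.21, edgeR adjusted p = 1.68e-25), where in mutants it fell 2.08-fold (-1.06, SE 0.20, 5.15e-06). From P29 to 3M it fell 1.68-fold in controls (-0.75, SE 0.25, 0.0299) and 3.84-fold in mutants (-1.94, SE 0.24, 8.61e-11). The control call for that step was lost in 6 of 8 fits and kept without P29 replicate 3 or 3M replicate 3, and it was lost with only the compared libraries (0.168). Fbln5, a fibulin needed for elastic fibre assembly, measured 109, 126, 94.3 and 79.7 CPM in P11 controls and 63.4, 72, 58.1 and 81.6 in mutants. It fell 1.48-fold (-0.57, SE 0.16, 0.017) with overlap through mutant replicate 4, and the call was lost without control replicate 1 or 2 or mutant replicate 1 or 3 (adjusted p 0.0563 to 0.104). Fbln5 also fell 1.47-fold in controls from P11 to P29 (-0.56, SE 0.16, 0.00455).

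Fbn1, encoding the microfibril protein fibrillin-1, was 388 CPM ± 14.2 (SD, n = 4) in P11 controls and 425 ± 26 in P11 mutants (0.13, SE 0.09, edgeR adjusted p = 0.492). It fell with age in both genotypes, by 2.19-fold in controls (-1.13, SE 0.10, 2.12e-18) and 2.49-fold in mutants (-1.32, SE 0.10, 3.35e-22) to P29, and by 1.26-fold (-0.33, SE 0.10, 0.0132) and 1.24-fold (-0.31, SE 0.10, 0.022) to 3M. The 3M steps were lost without P29 replicate 4 or 3M replicate 1 in controls and without P29 replicate 1 or 3 or 3M replicate 2 or 4 in mutants. Mfap2, a microfibril glycoprotein, fell 4.95-fold in controls (-2.31, SE 0.46, 5.11e-05) and 2.20-fold in mutants (-1.14, SE 0.45, 0.0447) to P29. The mutant call was lost without P11 replicate 1, 2 or 3 or P29 replicate 1, 2 or 4 and with DESeq2 (-1.19, adjusted p = 0.117). Fbln2 fell 5.49-fold in controls to P29 (-2.46, SE 0.69, 0.00937), and Efemp2, or fibulin-4, rose 1.86-fold in mutants (0.89, SE 0.32, 0.0218). The Efemp2 call was lost without P11 replicate 4 or P29 replicate 2 or 3. Fbln1, Efemp1 and Ltbp2 passed in no comparison of the fit to all libraries, with group means of 7.7 to 13.8, 5.25 to 12.5 and 0.721 to 3.94 CPM. Ltbp2, near the floor, did not overlap at P29, at 0.369 to 1.59 CPM in controls and 2.36 to 5.55 in mutants. From P11 to P29, Efemp1 became a call in controls without P29 replicate 3 (-1.76, edgeR adjusted p = 0.0197), and Ltbp2 in mutants without P11 replicate 4 (4.28, 0.0174). Fbln2 was called lower in mutants with only the compared libraries, from P11 to P29 (-1.52, 7.03e-05) and to 3M (-1.55, 0.0209), and in controls from P29 to 3M without 3M replicate 3 (-1.73, 0.0218).

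Loxl1, a lysyl oxidase that crosslinks elastin, measured 144, 122, 172 and 141 CPM in P11 controls and 107, 104, 105 and 125 in P11 mutants. Mutant replicate 4 lay above control replicate 2, and Loxl1 fell 1.31-fold (log2 fold change -0.39, SE 0.12, edgeR adjusted p = 0.0283). The call was lost without control replicate 1 or 3 or mutant replicate 1, 2 or 3 (adjusted p 0.0543 to 0.168), with no low-count filter (0.0509) and with only the compared libraries (0.076). In mutants Loxl1 rose 1.38-fold from P11 to P29 (0.47, SE 0.12, 0.000979), to 152 CPM ± 11.4 (SD, n = 4) beside 148 ± 18.8 in P29 controls. Lox, the founding enzyme of the family, passed in no comparison of the fit to all libraries. Its fall in controls from P11 to P29 was called with no low-count filter (-1.64, edgeR adjusted p = 0.0141), with only the compared libraries (-1.67, 0.000571), with DESeq2 (-1.70, adjusted p = 0.0311) and without P11 control replicate 2 (-1.87, 0.0495). Its means were 29.1 CPM ± 17.5 in P11 controls and 23.4 ± 9.86 in mutants, and its 3M control mean of 17.2 ± 22.3 held the single value of 50.6. At P29 Lox was 7.5 to 11.4 CPM in controls and 16.5 to 21.7 in mutants, with no overlap and no call.

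Sparc, which encodes a matricellular protein that binds collagen IV, measured 2317, 2409, 2254 and 2206 CPM in P11 controls and 1868, 1846, 1894 and 2175 in P11 mutants. Mutant replicate 4 was near the lowest control but under it, and Sparc fell 1.18-fold (log2 fold change -0.24, SE 0.06, edgeR adjusted p = 0.00768). It fell with age in both genotypes, by 2.17-fold in controls (-1.12, SE 0.06, 1.22e-29) and 2.08-fold in mutants (-1.06, SE 0.06, 6.2e-28) to P29, then by 1.44-fold (-0.52, SE 0.06, 9.61e-11) and 1.28-fold (-0.35, SE 0.06, 1.02e-05) to 3M. Fn1, the fibronectin gene, had P29 means of 10.1 CPM ± 2.81 (SD, n = 4) in controls and 21.9 ± 8.33 in mutants (1.11, SE 0.55, 0.471). That difference was called with no low-count filter (1.12, 0.0497) and with only the compared libraries (1.13, 0.0354). At 3M a lower level in mutants was called without control replicate 1 (-1.36, 0.0382). Fn1 fell 4.01-fold in controls from P11 to P29 (-2.00, SE 0.55, 0.00702), and in mutants it was called lower over that step with no low-count filter (-0.92, 0.0188) and with only the compared libraries (-0.94, 0.00216). Its lower level in mutants from P29 to 3M was called in 5 alternatives, among them no low-count filter (-1.75, 5.41e-05), only the compared libraries (-1.77, 5.79e-05) and DESeq2 (-1.75, adjusted p = 0.0317). Bgn, the small proteoglycan biglycan, passed in no comparison of the fit to all libraries, with group means of 83.3 to 137 CPM. Without mutant replicate 4 its P11 difference became a call (-0.71, edgeR adjusted p = 0.0249), and without control replicate 3 it fell in controls from P29 to 3M (-1.06, adjusted p = 1.69e-05). In mutants it was called higher from P11 to P29 with no low-count filter (0.63, 0.0346), with only the compared libraries (0.61, 0.0116) and without P11 replicate 4 (0.98, 0.000116), and lower to 3M with only the compared libraries (-0.47, 0.00218).

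From P11 to P29, 20 of 34 genes fell and 3 rose in controls, where 32% of all genes passed, 15.6% lower and 16.5% higher. The median log2 fold change was -0.97 against -0.0217 over all genes. In mutants 10 fell and 7 rose over the same step, where 31.7% of all genes passed, 15.2% lower and 16.4% higher, and the median was -0.37. The 10 that fell in mutants were among the 20 that fell in controls. The 3 that rose in controls, Col18a1, Col8a2 and Timp3, rose in mutants too. Over the later step 10 genes fell and 3 rose in controls, where 12% of all genes passed, 8.5% lower and 3.49% higher. In mutants 10 fell and 2 rose, where 12.7% passed, 7.27% lower and 5.44% higher. Of these, 8 fell in both genotypes, Col4a1, Lama2, Lamc1, Nid1, Hspg2, Eln, Fbn1 and Sparc, and Col8a2 and Timp3 rose in both. Of the endothelium markers, 8 of 8 were lower in controls and 2 of 8 in mutants from P11 to P29 (medians -2.46 and -0.30), and 5 of 8 in controls and 8 of 8 in mutants from P29 to 3M. Other lists fell in controls too. From P11 to P29, 5 of 5 myelinating glia markers tested and 4 of 6 lens markers were lower, with 0 higher. Of the Muller glia and astrocyte markers 3 of 4 were lower and 1 higher. From P29 to 3M, 6 of 6 rod and 5 of 7 stromal fibroblast markers were lower in controls, with 0 higher. RPE markers rose, 6 of 6 tested at each step in both genotypes. The part of these marker lists in the age changes was not tested.

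**Figure D4:**
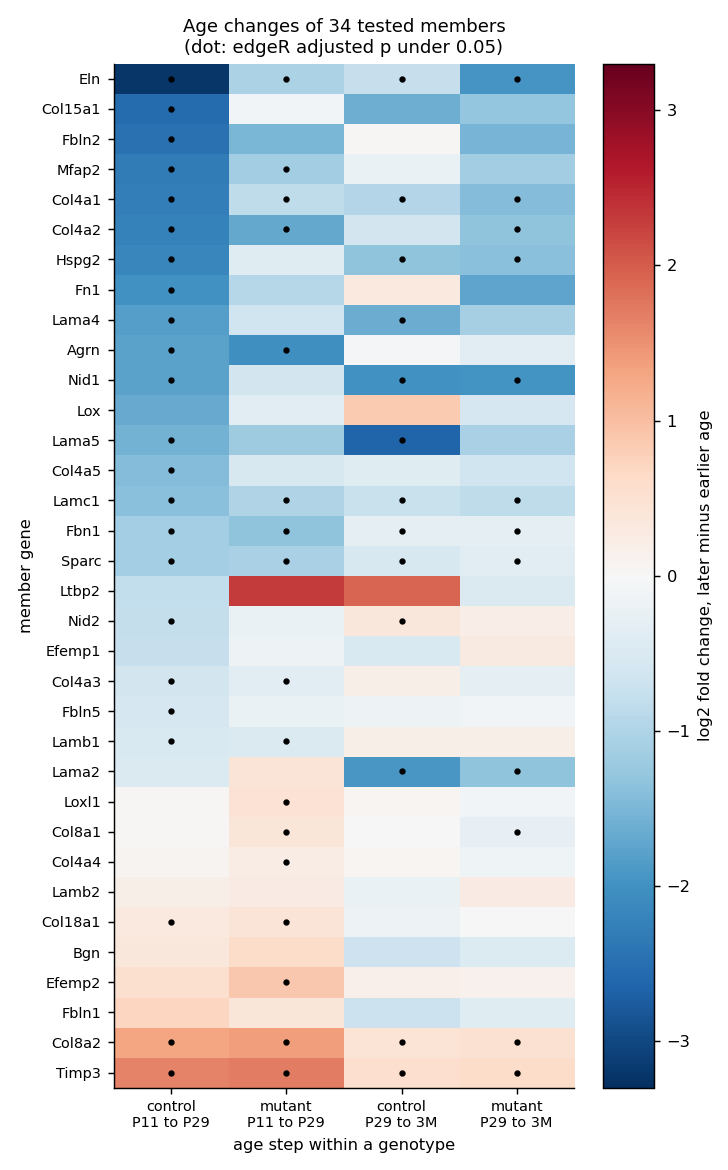
Log2 fold change of the later against the earlier age (colour) for the 34 tested genes (rows) in the 4 age steps (columns), with a dot where the edgeR adjusted p was under 0.05. Timp3 and Col8a2 have dots and positive values in all 4 columns, while Col4a1, Lamc1, Eln, Fbn1 and Sparc have dots and negative values in all 4.

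Whether the genotype effect changed with age was tested directly. From P11 to P29 it passed for 4 of 34 genes, all towards higher values in mutants, where 2.63% of all genes passed, 1.45% towards higher. Eln had the difference with the smallest p of the set (log2 2.16, SE 0.28, edgeR adjusted p = 1.64e-08), followed by Col4a1 (1.45, SE 0.27, 0.000139), Col8a1 (0.36, SE 0.07, 0.00029) and Hspg2 (1.74, SE 0.49, 0.0293). The Hspg2 call was lost in 7 of the 16 fits that left out 1 library, those without P11 control replicate 4, P11 mutant replicate 1 or 2, P29 control replicate 3 or 4 or P29 mutant replicate 2 or 3. This test shares its P11 and P29 libraries with the genotype comparisons above and is not separate evidence. Between P29 and 3M only the difference for Col8a1 passed in the fit to all libraries (-0.28, SE 0.07, 0.024), where 0.853% of all genes passed, 0.244% towards lower. It was lost in 7 of 16 fits, without P29 control replicate 3, P29 mutant replicate 1 or 3, 3M control replicate 1 or 3 or 3M mutant replicate 1 or 4. Over this step the Eln difference was called with DESeq2 (-1.22, adjusted p = 0.0242) and with no low-count filter (-1.21, edgeR adjusted p = 0.0369). It was also called without 3M control replicate 2 (-1.41, 0.015) or 4 (-1.31, 0.0464). That of Fn1 was called with no low-count filter (-2.09, 0.00924) and without 3M control replicate 1 (-2.47, 0.00206). The endothelium markers passed this test from P11 to P29 in 4 of 8, all higher, and the lens markers in 6 of 6. Myelinating glia markers passed in 3 of 5 tested, choroidal melanocyte markers in 2 of 4 and rod markers in 2 of 6, all higher. Pericyte (1 of 6), Muller glia and astrocyte (1 of 4) and microglia markers (1 of 5) passed towards higher. Of the RPE markers 1 of 6 tested passed towards lower, and stromal fibroblast markers passed in 0 of 7.

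Around this set, 74 further genes of the matrix pathway were followed, comprising other laminin chains, receptors, metalloproteinases and inhibitors, collagen folding and crosslinking enzymes, other elastic fibre genes, fibrillar collagens and TGF-beta ligands or targets. The median log2 fold change of the 66 tested was -0.37 in P11 mutants, against -0.00155 over all genes. Of the 66, 10 fell at P11 (edgeR), where 3.67% of all genes fell. They included the integrin receptor genes Itga1 (34.1 CPM ± 4.99 in controls and 14.7 ± 2.98 in mutants, SD, n = 4), Itgb1 (145 ± 15.2 and 93.3 ± 6.94) and Itgb5 (69.9 ± 16.9 and 39.6 ± 6.29), 3 of 14 receptors tested. The collagen folding and crosslinking genes lower at P11 were 4 of 16, Serpinh1, the collagen chaperone (log2 fold change -0.56, SE 0.14, adjusted p = 0.00462), the collagen galactosyltransferase Colgalt1 (-0.71, SE 0.19, 0.00932), Loxl4 (-1.31, SE 0.38, 0.0179) and transglutaminase 2, Tgm2 (-1.90, SE 0.50, 0.00786). Ltbp4 (-1.54, SE 0.31, 0.000284) and Adamtsl4 (-0.56, SE 0.14, 0.00684) fell among 9 other elastic fibre genes, and Timp2 fell by 0.22 on the log2 scale (SE 0.07, 0.0465) among 11 metalloproteinases and inhibitors. The 8 fibrillar collagens all had negative P11 differences, with a median of -0.34, but 0 passed in edgeR or DESeq2 and 1 had an unadjusted p under 0.05.

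At P29 this wider list held 2 lower of 66, Adamtsl4 (-0.56, SE 0.14, edgeR adjusted p = 0.00573) and Crtap, a component of the collagen prolyl hydroxylation complex (-1.70, SE 0.51, 0.0419). Of all genes 1.21% fell at P29. At 3M 1 of the 66 fell and 1 rose, where 0.48% of all genes fell and 2.13% rose. Serpinh1 fell 1.42-fold at 3M (-0.51, SE 0.14, 0.0217), from 106 CPM ± 13.3 (SD, n = 4) in controls to 74.2 ± 7.84 in mutants. Tgfb2, a TGF-beta ligand, rose 2.08-fold at 3M (1.05, SE 0.27, 0.0139), measuring 8.84, 5.87, 5.67 and 7.68 CPM in controls and 12.5, 15.7, 19.3 and 11.4 in mutants. The median log2 fold change of the 66 was -0.000996 at P29 and 0.00397 at 3M, against -0.000732 and 0.0319 over all genes.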

How the data were processed

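RNA of isolated RPE cells was prepared with a 3' mRNA kit from 100 ng of total RNA and sequenced single-end with reads of 100 bp, per the labels' protocols. The authors deposited raw counts per gene, whole numbers in 1 file per library. The submitters' processing notes name STAR and mm10 and give no versions. No source used here gives the counting tool, the annotation or the use of strand. Each file held 31053 gene identifiers and 5 entries that name no gene, which entered neither library sizes nor tests. Reads in no feature were 18.6% to 27.5% of a library's entries, ambiguous reads 0.192% to 0.322% and reads at several places 31% to 37.2%. Symbols and positions came from GENCODE for GRCm38, and 119 identifiers had no symbol.

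All 24 libraries were fitted with the quasi-likelihood test of edgeR 4.0.16 in R 4.3.3 (TMM, filterByExpr on groups, robust fit, 1 mean per group), with Benjamini-Hochberg adjustment over 12303 genes and a threshold of 0.05. Standard errors are the log2 fold change over the root of F. The 9 contrasts were mutant against control at 3 ages, 2 age steps in each genotype and 2 differences of the genotype effect. Alternatives were DESeq2 size factors, DESeq2 1.42.0, no low-count filter, a filter of 5 CPM in 4 libraries, the replicate number as a block, a fit to the compared libraries and leaving out each library. Libraries of a group differed by more than sampling noise in all 36 pairs (chi-square per gene 3.03 to 7.36). The fit was tested on simulated data.

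The genes and lists were chosen with earlier results of these data known. All 36 genes are accounted for. Those passing in a contrast are given with fitted values, those passing between genotypes also with every library, and of the wider matrix list those passing between genotypes, at most 4 per role. Marker genes appear as list sums, except defining ones.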

Additional observations from a re-analysis of the deposited data

Results flagged for a closer look

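Within groups of 4 libraries, 13 of 204 checks of a single gene found 1 library far from the other 3, where chance at 1 in 20 would give 10.2, so the number is near what chance gives. In P29 controls these were Lama2 in replicate 2 (16.3 CPM, others 11.4 to 11.8), Lamb2 in replicate 3 (63.1, others 84.2 to 85.7), Nid2 in replicate 3 (82.2, others 90.1 to 91.4) and Col18a1 in replicate 1 (326, others 310 to 312). In P29 mutants they were Col15a1 in replicate 1 (6.92 CPM) and Fbln5 in replicate 3 (74.7). In 3M controls they were Col15a1 in replicate 1 (3.37 CPM, with 0 in the other 3) and, both in replicate 3, Fbln2 (30.5) and Lox (50.6). In 3M mutants they were Col18a1 in replicate 4 (221 CPM) and Fbln5 in replicate 3 (68.7). In P11 mutants they were Sparc (2175 CPM, others 1846 to 1894) and Loxl1 (125, others 104 to 107), both in replicate 4.

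A direct test found that the genotype effect differed between ages in 5 cases. From P11 to P29 the log2 difference was 1.45 for Col4a1 (edgeR adjusted p = 0.000139), 1.74 for Hspg2 (0.0293), 0.36 for Col8a1 (0.00029) and 2.16 for Eln (1.64e-08). From P29 to 3M it was -0.28 for Col8a1 (0.024). Of all genes 2.63% passed at the first step and 0.853% at the second. The Hspg2 call and the P29 to 3M call of Col8a1 were each lost in 7 of the 16 fits that left out 1 library.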

How the results depend on the processing

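Across the 90 called values of single genes and 1299 recomputed values, 0 turned direction, and 64 calls were kept in every alternative run. Calls lost numbered 8 with no low-count filter, 7 with only the compared libraries, 2 with DESeq2, 1 with DESeq2 size factors and 0 with the 5 CPM filter. With no low-count filter 2 genes were called between genotypes at 3M against 4, and 3 for the genotype effect from P29 to 3M against 1, where DESeq2 gave 2. Only the compared libraries gave 8 for controls from P29 to 3M against 13. The cause was not tested.

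Leaving out 1 library gave 9 to 13 genes called between genotypes at P11, 3 to 3 at P29 and 0 to 3 at 3M, with 0 at 3M when the library left out was control replicate 3 or mutant replicate 1 or 4. It gave 22 to 24 for controls and 14 to 19 for mutants from P11 to P29, 9 to 14 and 8 to 12 from P29 to 3M, and 3 to 4 and 0 to 2 for the genotype effect at the first and second step. Of the P11, P29 and 3M genotype calls, 9 of 13, 3 of 3 and 0 of 4 were kept in every such fit.

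The replicate numbers did not pair the libraries: correlations of deviations between same-numbered libraries ran from -0.0374 to 0.0383 over 60 pairs, and 13 of 60 correlated best with their own number. With the replicate number as a block, 12 genes were called at P11 against 13 (Col4a4, -0.26, edgeR adjusted p = 0.0550), 3 at P29 and 4 at 3M.

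Depth limits genes near the floor, such as Col4a6, Lama1, Ltbp2 and Col15a1, and size factors moved the median of all genes by less than 0.1 in each contrast.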
